A study of Mus musculus with 4 samples.

Results

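Deletion of the interleukin-1 receptor type 1 (IL-1R1) from neurons was compared with wild type in single nuclei of the hippocampus. The mice were male and of 2 genotypes. IL-1R1+/+ mice carried no Cre. In nIL-1R1-/- mice, Cre under control of Vglut2 (Slc17a6), a vesicular glutamate transporter, removed Il1r1 from glutamatergic neurons. By this design glia, vessels and inhibitory neurons keep the gene, which was not tested at the DNA level here. Mice of each genotype stayed undisturbed (control) or went through repeated social defeat (RSD), in which a male CD-1 aggressor enters the home cage on consecutive nights, and nuclei were taken 14 h after defeat. Each of the 4 groups was 1 pool of hippocampi from 3 mice. The age of these in-house bred mice was not given in the sources used here. Con-nIL-1R1-/- was set against Con-IL-1R1+/+ (the control pair) and Stress-nIL-1R1-/- against Stress-IL-1R1+/+ (the stress pair). Nuclei with over 20% of their UMIs (unique molecular identifiers, each standing for 1 captured RNA molecule) in genes whose names start with mt- were left out. This left 25968 nuclei of 56834 in the whole series. The wild-type and knockout pools held 7554 and 6511 nuclei in the control pair and 5858 and 6045 in the stress pair. Values of a pair are given below with the wild type first.

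IL-1R1 is the receptor that binds IL-1α and IL-1β. With its co-receptor IL1RAP it recruits the adaptor MYD88 and the IRAK kinases and activates NF-κB and MAP kinase signaling. In the brain the receptor is known on endothelial cells and, among hippocampal neurons, on granule neurons of the dentate gyrus (DG), the first relay for input from the entorhinal cortex.

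A pool was the unit of replication, so no test exists between the pools of 1 pair, and each interval below covers counting error only. Levels are given as CPM, the UMIs of a gene scaled to a common total of all UMIs of that class in a pool, and each ratio is the log2 of nIL-1R1-/- over IL-1R1+/+ with a 95% interval. A gene was called in the same direction when a class held 50 UMIs of it or more, summed over its pools, and it was past 1.5-fold the same way in both pairs, and both intervals left out 0. Genotype was also tested over the 4 pools with edgeR, with stress state as a term, which leaves 1 residual degree of freedom. A small p from this fit is no measure of agreement between the pairs. Lhfpl3, given below, passed it in CA1-like nuclei with pairs of opposite signs. Nuclei were named by markers as excitatory neurons (CA1-like, CA2/3-like and DG-like), inhibitory-like (INH) neurons, and glial and endothelial-like nuclei.

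The pools did not hold the same tissue in the same shares, and this stands beside every result. Total UMIs per pool were between 24531457 and 58081835, and the median per nucleus was between 2580 and 5012, highest in Con-nIL-1R1-/-. Nuclei with Slc17a6 markers were found almost only in Con-IL-1R1+/+ (1583 nuclei, against 21, 73 and 30 in the others). This class was of mixed transmitter type. Its summed Slc17a6 and Slc17a7 level was 77.1 CPM, and that of the inhibitory markers Gad1 and Gad2 was 149.6 CPM. By the same measure the clusters named DG-like were mixed too, with 67.2 and 50.9, 66.2 and 70.2, and 86.0 and 61.5 CPM. Nuclei with medium spiny markers were found almost only in Stress-IL-1R1+/+ (295 nuclei, against 1, 4 and 13). These classes, which the hippocampus is not known for, were kept out of the classes compared. The main hippocampal classes were well filled, with 984 to 1412 DG-like, 614 to 1069 CA1-like, 421 to 678 CA2/3-like and 584 to 903 INH-like nuclei per pool. No cell barcode was found in more than 1 pool (0 shared). Because a barcode holds the well in which a pool was loaded, this count does not test for mixing between pools.

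The targeted gene was examined first. Il1r1 (chr1:40264174-40356417, plus strand, mm39; protein coding) was lower in DG-like nuclei of both nIL-1R1-/- pools. Its level was 62.6 CPM in Con-IL-1R1+/+ (251 UMIs) and 11.2 CPM in Con-nIL-1R1-/- (74 UMIs). It was 29.4 CPM in Stress-IL-1R1+/+ (92 UMIs) and 8.97 CPM in Stress-nIL-1R1-/- (24 UMIs). Both nIL-1R1-/- pools lay below both wild-type pools. The log2 ratio was -2.48 (-2.88 to -2.10) in the control pair and -1.71 (-2.43 to -1.05) in the stress pair. Over the 4 pools the edgeR quasi-likelihood estimate was -2.22 (Benjamini-Hochberg adjusted p = 3.84e-10, and 3.29e-21 to 0.0379 over the alternatives). The 4 pools of the diet experiment, all with the gene intact, had 83.0, 77.0, 68.8 and 50.3 CPM in DG-like nuclei, so both nIL-1R1-/- pools also lay below all 6 others. In that order they were Con-Veh, Con-PLX, Stress-Veh and Stress-PLX, on vehicle or PLX5622 diet, which depletes microglia. Their median depths were 2563, 598, 1325.5 and 628 UMIs per nucleus. Their classes were taken from the nearest nuclei of the pools compared. The paper's PLX5622 experiments used purchased C57BL/6 mice, not the in-house line. UMIs remained in both knockout pools, and because the counts are per gene they do not show which exons these came from.

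The ratio in DG-like nuclei was below 0 in each of the 4 sublibraries, the portions of nuclei that were amplified apart. In the control pair the ratios were -2.39, -3.36, -2.17 and -2.40. In the stress pair they were -1.04, -1.76, -1.52 and -2.67, from 30 and 13, 15 and 4, 6 and 2, and 41 and 5 UMIs. The interval of sublibrary 3 in the stress pair held 0 (-4.86 to 0.97). Sublibraries hold nuclei of the same mice, so this agreement covers the library step and not the animals. By nuclei, 14.6% and 4.39% of DG-like nuclei had an Il1r1 UMI in the control pair and 7.01% and 1.92% in the stress pair, with median depths of 2393, 3389, 2507.5 and 1912.5 UMIs. In CA1-like nuclei, where Il1r1 was near its floor, the shares were 0.655%, 1.08%, 0.489% and 0.427% at median depths of 3439, 4669, 3015 and 2847.5 UMIs, and these serve as the background. Nuclei of 500 UMIs or more were also thinned to 500 UMIs each. Shallower ones were left out, 30, 0, 6 and 36 DG-like and 16, 0, 9 and 24 CA1-like nuclei. After thinning, the shares in DG-like nuclei were 3.46%, 0.425%, 0.716% and 0.498%, against 0%, 0.196%, 0% and 0% in CA1-like nuclei. At that depth the shares of the stress pair lay close to each other, with 7 and 5 nuclei. The thinned ratios in the closing section come from another random draw. DG-like nuclei held 43.6% of all Il1r1 UMIs of the pool in Con-IL-1R1+/+ and 24.2% in Con-nIL-1R1-/-, and 27.3% and 19.8% in the stress pair.

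**Figure D1:**
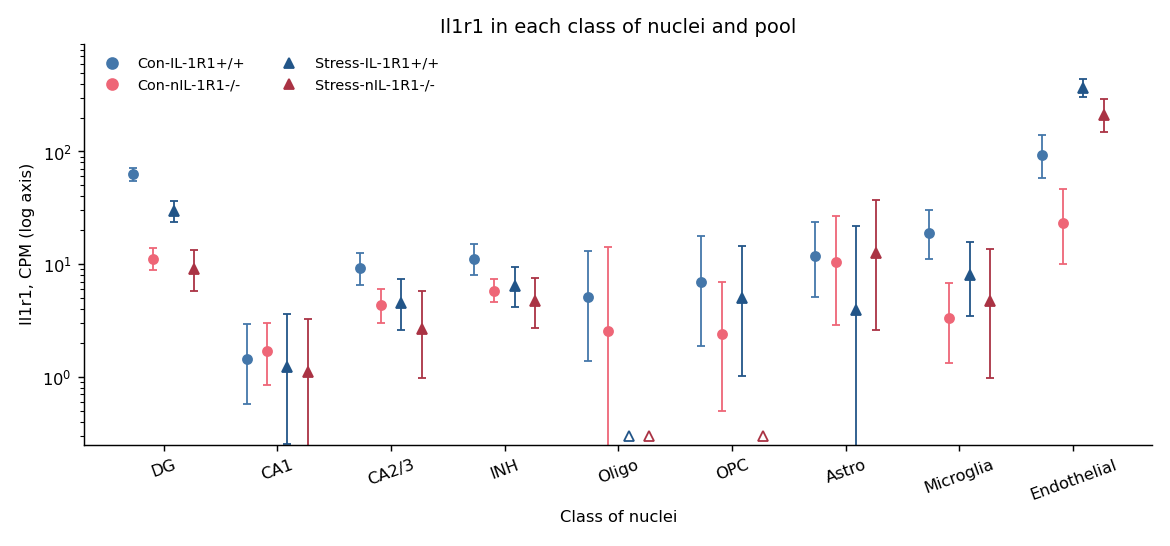
Il1r1 level (CPM, log axis) in 9 classes of nuclei for the 4 pools, circles for control and triangles for stress, with exact 95% Poisson intervals as bars and open symbols at the foot for 0 UMIs. DG-like nuclei fall from 62.6 to 11.2 CPM in the control pair and from 29.4 to 8.97 CPM in the stress pair, and endothelial-like nuclei have the highest level.

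Il1r1 was lower in CA1-like and CA2/3-like nuclei than in DG-like nuclei of the wild type. In CA2/3-like nuclei it was 9.19 and 4.33 CPM in the control pair and 4.51 and 2.65 CPM in the stress pair. The ratio was -1.08 (-1.79 to -0.39) in the control pair and -0.76 (-2.41 to 0.66) in the stress pair, which rests on 16 and 6 UMIs. In CA1-like nuclei there were 7 and 11 UMIs in the control pair and 3 and 3 in the stress pair, too few to show a difference of this size. The nuclei with Slc17a6 markers, of mixed transmitter type, had 9.13 CPM in Con-IL-1R1+/+ (87 UMIs) and 50.5 CPM in Con-nIL-1R1-/- (8 UMIs in 5 of 21 nuclei). They had 10.1 and 11.3 CPM in the stress pair (3 and 1 UMIs). In this class the knockout pool was not the lower one in either pair, on few nuclei in 3 of the 4 pools.

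Classes that by design keep the gene were set beside the DG. In INH-like nuclei Il1r1 was 11.1 CPM in Con-IL-1R1+/+ and 5.82 in Con-nIL-1R1-/-, and 6.38 and 4.69 in the stress pair. All 4 levels were low, and the knockout pool was the lower one in each pair. The ratio was -0.93 (-1.50 to -0.36) in the control pair and -0.44 (-1.42 to 0.50) in the stress pair, so the call was not met. The difference between DG-like and INH-like nuclei was tested as a class by genotype term in edgeR. The genotype effect on Il1r1 was lower in DG-like than in INH-like nuclei by 1.47 on the log2 scale (term -1.47, Benjamini-Hochberg adjusted p = 0.00362). That call was lost without sublibrary 1, 2 or 4 and kept without sublibrary 3, and the adjusted p over the alternatives ran from 0.00362 to 0.508.

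Endothelial-like nuclei were also called lower, although the Cre driver is not known in vessels. Il1r1 was 92.7 CPM in Con-IL-1R1+/+ (22 UMIs) and 23.4 CPM in Con-nIL-1R1-/- (8 UMIs), and 367 CPM in Stress-IL-1R1+/+ (122 UMIs) and 212 CPM in Stress-nIL-1R1-/- (36 UMIs). The ratios were -1.99 (-3.36 to -0.76) and -0.79 (-1.37 to -0.25). These counts came from 64, 36, 58 and 48 nuclei and from few of them. In Con-IL-1R1+/+ 1 nucleus held 15 of the 22 UMIs, and the level without it was 30.3 CPM. In Stress-IL-1R1+/+ 1 nucleus held 36 of the 122 UMIs (270.5 CPM without it), and 103 of the 122 lay in sublibrary 4. Without that sublibrary the ratio of the stress pair turned to 0.74, and without sublibrary 2 the control ratio was -0.72. The edgeR test over pools did not call it (log2 -1.20, adjusted p = 0.307). The summed endothelial markers of these nuclei, given below, were also lower in the knockout pool of each pair. Their part in the Il1r1 ratios was not tested.

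**Figure D2:**
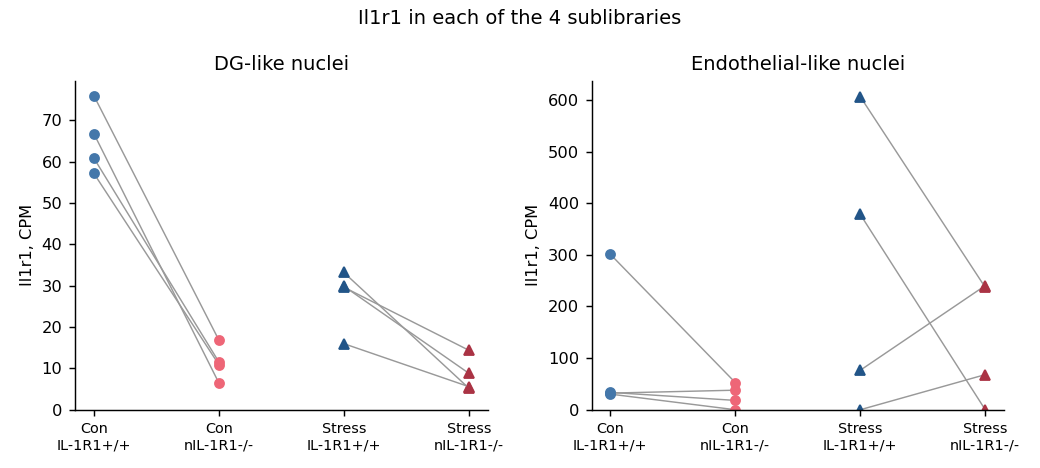
Il1r1 level (CPM) in each of the 4 sublibraries, for DG-like nuclei on the left and endothelial-like nuclei on the right, with a line joining the pools of 1 pair in the same sublibrary. All 8 lines fall in DG-like nuclei, while in endothelial-like nuclei the lines of both pairs go both ways.

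Glia held few Il1r1 UMIs. Microglia-like nuclei had 17 and 7 UMIs in the control pair (19.0 and 3.30 CPM) and 8 and 3 in the stress pair (8.02 and 4.70 CPM), with ratios of -2.52 (-4.04 to -1.18) and -0.77 (-3.32 to 1.29). Their summed microglial markers, given below, were lower in the knockout pool of the control pair and higher in that of the stress pair. Astrocyte-like nuclei had 8 and 4 UMIs in the control pair and 1 and 3 in the stress pair. Oligodendrocyte precursor-like nuclei had 4, 3, 3 and 0 UMIs, and oligodendrocyte-like nuclei 4, 1, 0 and 0. All 4 of these classes were below the 50 UMIs needed for a call. Over all nuclei Il1r1 was 15.3 and 5.27 CPM in the control pair and 11.98 and 4.93 CPM in the stress pair.

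Other members of the IL-1 system were examined beside the receptor. Of 10 IL-1 family receptor genes, 4 had 50 UMIs or more in DG-like nuclei, and Il1r1 was called lower while 0 others were called. Over all genes 0.162% were called in this class, so 0 calls in a short list is near the background and is no result about its members. In CA2/3-like, INH-like and endothelial-like nuclei 2 of the 4 measured receptor genes had an unadjusted edgeR p under 0.05, and 0 passed after adjustment. Over all genes these counts were 562 of 11718, 726 of 12302 and 440 of 4969. In DG-like, CA1-like, oligodendrocyte-like and astrocyte-like nuclei 1 receptor gene each was under 0.05, and in the other 2 glial classes 0 were. Il1rap, the co-receptor, was 665 and 655 CPM in the control pair and 588 and 614 CPM in the stress pair. These 4 levels overlapped between genotypes. Il1rapl1, a synaptic adhesion molecule of the same family, was 2298, 2308, 2178 and 2200 CPM in the same order. Il1rapl2 was 117, 94.5, 121 and 124 CPM. The decoy receptor Il1r2 had 13 UMIs in all and Il1rl1, the IL-33 receptor, had 0. Among 8 ligands, Il18 could be measured in DG-like nuclei, at 16.4, 11.8, 11.2 and 9.72 CPM, and it was not called. Il1b had 2 UMIs and Il1a 0 in DG-like nuclei over the 4 pools.

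Of 26 genes of IL-1 signaling, 19 could be measured in DG-like nuclei and 0 were called, again against 0.162% of all genes. Their median ratio was -0.06 in the control pair and 0.06 in the stress pair, against -0.02 and -0.01 over all 11077 genes measured. Nfkb1, the p105 subunit of NF-κB, was 94.5, 94.6, 102 and 101 CPM across the pools. Mapk8, which encodes the kinase JNK1, was 55.8, 59.6, 60.8 and 56.5 CPM. Of the 26, 20 could be measured in CA1-like, 20 in CA2/3-like and 19 in INH-like nuclei, and 0 were called in each.

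The Cre driver and the region around both loci were examined as a check. Slc17a6 had 13 UMIs in DG-like nuclei over the 4 pools, with 0.640 to 1.12 CPM per pool. Slc17a7, the main vesicular glutamate transporter of the adult hippocampus, was 67.3 and 59.4 CPM in the control pair and 77.1 and 78.2 in the stress pair in DG-like nuclei (ratios -0.18 and 0.02). Within 5 Mb of the start of Il1r1 there were 75 protein-coding genes, of which 47 were measured in DG-like nuclei. Their median ratios were -0.06 and -0.00076, and 0 were called in the same direction in any of the 9 classes. Around Slc17a6, 21 of 55 such genes were measured in DG-like nuclei, and again 0 were called in any class. By edgeR alone, Npas2 (log2 0.52, adjusted p = 0.0276) and Cracdl (log2 0.54, adjusted p = 0.0168), both near Il1r1, were higher in INH-like nuclei. Both were past 1.5-fold in the control pair only, with ratios of 0.76 and 0.24 for Npas2 and of 0.90 and 0.08 for Cracdl. Nell1, near Slc17a6, was higher in astrocyte-like nuclei (log2 0.81, adjusted p = 0.033, ratios 0.47 and 1.42).

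Next, all genes were compared. Changes that held in both pairs were few. In DG-like, CA1-like and INH-like nuclei they were about as frequent as changes of opposite sign. In DG-like nuclei 485 genes were past the limits in the control pair and 374 in the stress pair, and the genes past them in both pairs are part of each count. Of 11077 genes, 7 were higher in both pairs (0.0632%) and 11 lower in both (0.0993%), 0.162% together, while 23 were past the limits in opposite directions. In CA1-like nuclei 1 was higher (0.00919%) and 13 lower (0.119%) of 10887, 0.129% together, with 17 opposite. In CA2/3-like nuclei 6 were higher (0.0533%) and 21 lower (0.187%) of 11258, 0.24% together, with 17 opposite. In INH-like nuclei, which by design keep the gene, 14 were higher (0.11%) and 16 lower (0.125%) of 12762, 0.235% together, with 26 opposite.

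**Figure D3:**
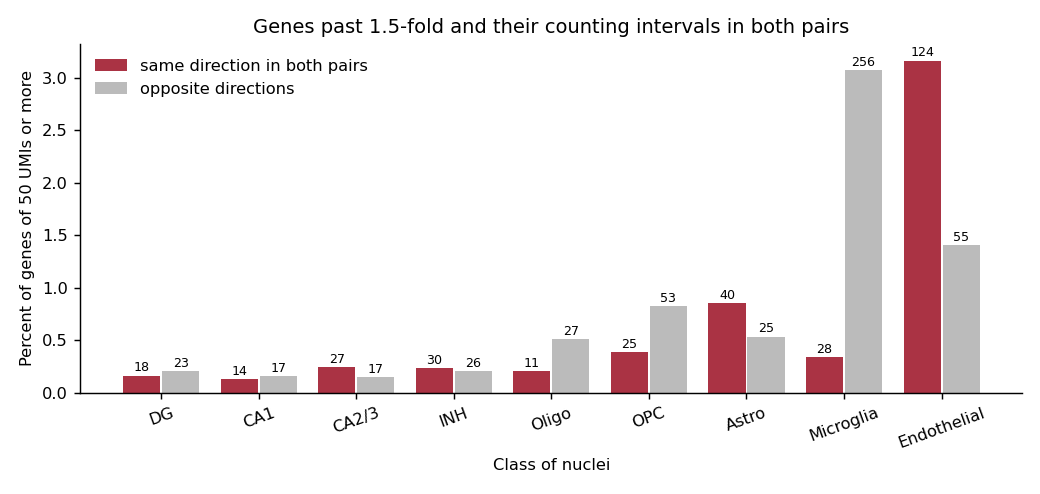
Percent of genes with 50 UMIs or more that were past 1.5-fold and their counting intervals in both pairs, in the same direction (red) or in opposite directions (gray), for 9 classes of nuclei, with the number of genes above each bar. DG-like nuclei have 18 and 23 genes, INH-like nuclei 30 and 26, microglia-like nuclei 28 and 256, and endothelial-like nuclei 124 and 55.

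In DG-like nuclei few genes beside Il1r1 passed either rule. By edgeR 2 of 11504 genes (0.0174%) passed an adjusted p of 0.05, Il1r1 and Galnt10, and 407 had an unadjusted p under 0.05. Both were also called in the same direction. The 5 strongest of the higher calls were Tagln3, Capn11, Gm15446, Pcsk1 and Il31ra. Tagln3, a neuronal protein of the calponin family, was 9.47 and 17.4 CPM in the control pair and 8.00 and 16.5 CPM in the stress pair (ratios 0.88 and 1.04). Both knockout pools lay above all 6 others, of which the highest was at 16.4 CPM. Capn11, a member of the calpain protease family, rose from 1.50 to 5.14 CPM and from 2.88 to 7.48 CPM (ratios 1.78 and 1.38). It was called higher in INH-like nuclei as well. Gm15446 was 5.23 and 16.6 CPM and then 17.6 and 28.4 CPM (ratios 1.67 and 0.69). Pcsk1, the prohormone convertase that cleaves neuropeptide precursors, was 6.98 and 11.8 CPM in the control pair and 2.88 and 7.48 CPM in the stress pair. With nuclei thinned to 500 UMIs the mean of both ratios turned to -0.065 for Tagln3 and -1.40 for Pcsk1. Il31ra, a cytokine receptor subunit, was 7.73 and 12.5 CPM and then 11.2 and 20.2 CPM, but other wild-type pools reached 74.1 CPM.

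The genes lower in DG-like nuclei after Il1r1 were Lacc1, Dph5, Gtf2e1, Calr and Galnt10 among those named. Calr, the calcium-binding chaperone of the endoplasmic reticulum, was 25.4 and 14.1 CPM in the control pair and 27.5 and 16.5 CPM in the stress pair (ratios -0.85 and -0.74). Both knockout pools lay below all 6 others (23.8 to 78.3 CPM). Dph5, an enzyme of diphthamide synthesis, was 17.7 and 10.1 CPM and then 15.4 and 7.11 CPM, also below all 6 others (13.3 to 17.7 CPM). Gtf2e1, a subunit of the general transcription factor TFIIE, was 15.7 and 8.77 CPM and then 16.003 and 7.85 CPM, within the range of the others. Lacc1, known for its part in macrophage metabolism, was 11.96 and 3.93 CPM and then 4.48 and 0.748 CPM, the last from 2 UMIs (ratio -2.58, -5.76 to -0.46). None of these 4 nor any of the 5 higher genes passed edgeR, with adjusted p between 0.0652 and 0.914. Of all DG calls, 3 of the 7 higher and 7 of the 11 lower had both knockout pools beyond all 6 others, against 2.25% and 4.23% of all genes measured. This follows in part from the calls themselves, since the same pools chose them. The same limit holds for every statement below that knockout pools lay beyond all 6 others.

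**Figure D4:**
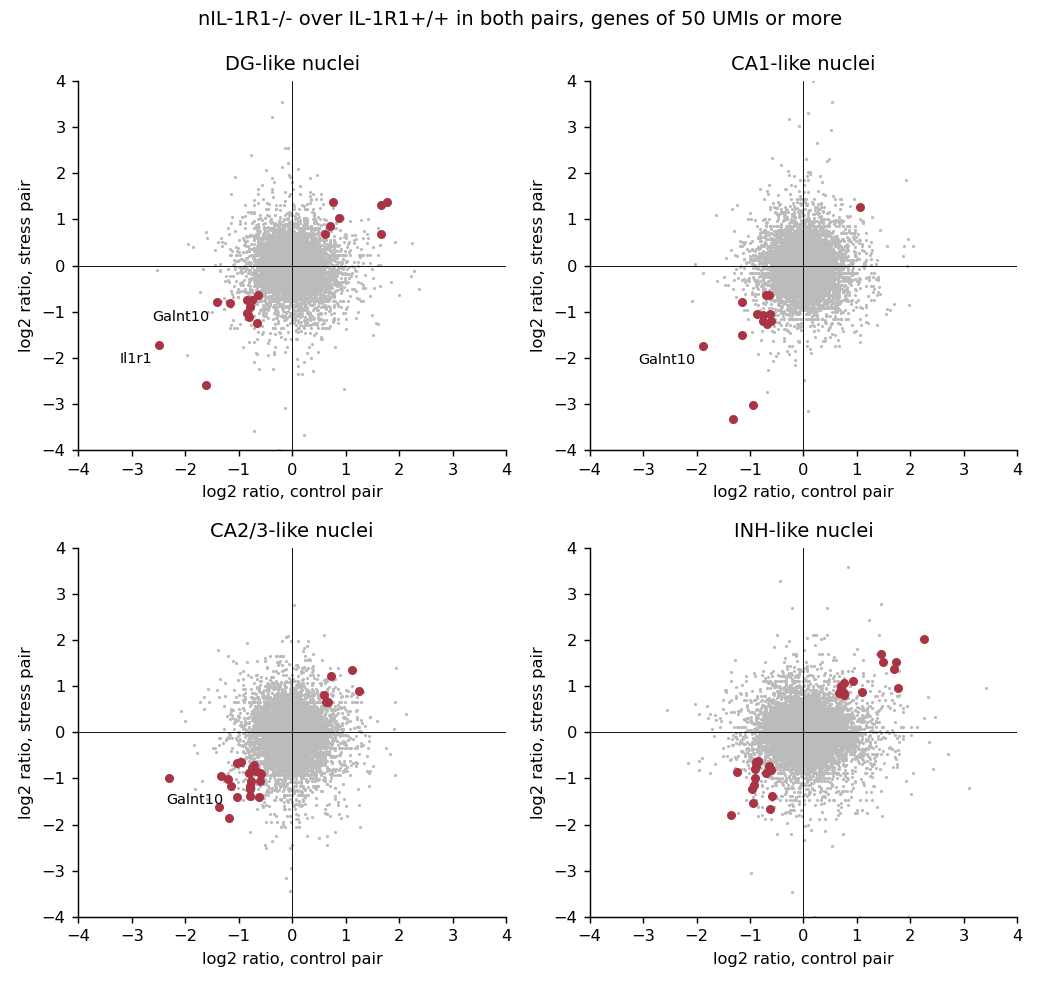
Log2 ratio of nIL-1R1-/- over IL-1R1+/+ in the control pair (x) and the stress pair (y) for every gene with 50 UMIs or more in 4 neuronal classes, gray for all genes and red for same-direction calls, with ratios past 4 drawn at the edge. Il1r1 stands at -2.48 and -1.71 in DG-like nuclei, and Galnt10 is among the red points in the DG-like, CA1-like and CA2/3-like panels.

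Galnt10 fell in all 3 classes of excitatory neurons. It lies at chr11:57536247-57679443 (plus strand, mm39; protein coding) and encodes an N-acetylgalactosaminyltransferase that starts mucin-type O-glycan chains. In DG-like nuclei it was 32.9 and 12.4 CPM in the control pair and 18.9 and 10.8 CPM in the stress pair. The ratios were -1.41 (-1.82 to -0.9996) and -0.80 (-1.49 to -0.14), and edgeR gave -1.17 (adjusted p = 0.0197). In CA1-like nuclei it was 16.3 and 4.45 CPM in the control pair and 11.1 and 3.33 CPM in the stress pair. Here the ratios were -1.88 (-2.54 to -1.25) and -1.74 (-3.01 to -0.60), with an edgeR estimate of -1.82 (adjusted p = 4.11e-05). In CA2/3-like nuclei it was 18.8 and 8.54 CPM and then 14.9 and 6.64 CPM, with ratios of -1.14 (-1.63 to -0.66) and -1.17 (-2.10 to -0.32) and an edgeR estimate of -1.11 (adjusted p = 0.011). In all 3 classes both knockout pools lay below all 6 others. Of all genes measured, 4.23% did so in DG-like, 4.92% in CA1-like and 4.91% in CA2/3-like nuclei. By sublibrary, the knockout pool was lower in 4 of 4 in both pairs of CA1-like and CA2/3-like nuclei, and in 4 of 4 and 3 of 4 in DG-like nuclei.

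Galnt10 also fell in INH-like nuclei, by less than the fold needed for a call. It was 80.7 and 42.3 CPM in the control pair and 67.8 and 53.0 CPM in the stress pair (ratios -0.93 and -0.36), and edgeR gave -0.65 (adjusted p = 0.00671). Both knockout pools were again below all 6 others (67.8 to 85.2 CPM), as they were for 3.75% of all genes measured in this class. The DG-like and INH-like effects were not shown to differ (term -0.46, adjusted p = 0.723). In oligodendrocyte-like nuclei Galnt10 was 25.4 and 30.9 CPM and then 58.1 and 76.8 CPM. In 3 classes the pairs went opposite ways. Galnt10 was 219 and 114 CPM and then 240.3 and 275 CPM in oligodendrocyte precursor-like nuclei, and 68.0 and 24.5 CPM and then 59.2 and 87.8 CPM in microglia-like nuclei. In endothelial-like nuclei it was higher in the control pair (8 and 13 UMIs) and lower in the stress pair (9 and 2 UMIs). In astrocyte-like nuclei it was 62.4 and 13.2 CPM and then 23.3 and 8.40 CPM, on 42, 5, 6 and 2 UMIs. The edgeR call of Galnt10 depended on the fit. Its adjusted p over the alternatives ran from 0.00178 to 1.00 in DG-like, 2.39e-06 to 1.00 in CA1-like, 0.00112 to 1.00 in CA2/3-like and 0.00444 to 1.00 in INH-like nuclei, and the call was lost with DESeq2 and with all 8 pools in the fit in all 4 classes.

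**Figure D5:**
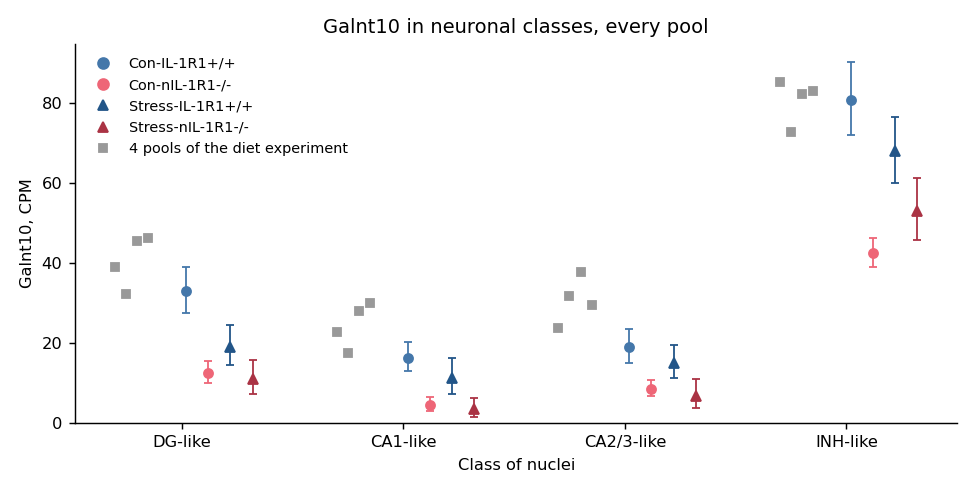
Galnt10 level (CPM) in 4 neuronal classes for every pool, with exact 95% Poisson intervals on the 4 pools compared and gray squares for the 4 wild-type pools of the diet experiment. The knockout pools (red) lie below all other pools in each of the 4 classes, from 3.33 CPM in CA1-like nuclei to 53.0 CPM in INH-like nuclei.

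In CA1-like nuclei edgeR passed 7 of 11447 genes (0.0612%), 3 higher and 4 lower, of which 3 were also called in the same direction. 1700057H15Rik, a long noncoding RNA, was the 1 gene called higher. It was 11.6 and 24.1 CPM in the control pair and 11.5 and 27.7 CPM in the stress pair, and both knockout pools lay above all 6 others (edgeR log2 1.14, adjusted p = 0.000902). Grip2, a scaffold that binds AMPA receptors, was 7.95 and 4.14 CPM and then 9.03 and 1.11 CPM, the last from 3 UMIs (ratio -3.03, -5.41 to -1.29). Hscb, a co-chaperone for iron-sulfur cluster assembly, was 5.10 and 2.30 CPM and then 7.39 and 2.59 CPM. The Hscb call held in 4 of 9 alternatives and was lost without each sublibrary in turn. The long noncoding RNA A230056P14Rik and Gm44742, a transcript of unsettled type, were lower in both pairs too, with ratios of -1.31 and -3.32 and of -0.77 and -1.20. The mean for Gm44742 turned to 0.31 with nuclei thinned to 500 UMIs. Grip2, Hscb, A230056P14Rik and Gm44742 each lay below all 6 other pools and did not pass edgeR (adjusted p between 0.0994 and 0.721). Of all genes measured in CA1-like nuclei, 4.92% lay below and 1.95% above all 6.

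In CA2/3-like nuclei edgeR passed 17 of 11718 genes (0.145%), 7 higher and 10 lower, of which 7 were called in the same direction. Cpne9, a calcium-dependent phospholipid-binding copine, was 77.5 and 40.1 CPM in the control pair and 86.5 and 55.3 CPM in the stress pair (edgeR log2 -0.79, adjusted p = 2.18e-05). It lay below all 6 others, as did 4.91% of all genes measured in this class. The same-direction call of Cpne9 held in 4 of 8 alternatives, lost among others without likely doublets and without sublibrary 1. Sirt5, a mitochondrial desuccinylase, was 14.1 and 8.17 CPM and then 13.0 and 5.75 CPM and did not pass edgeR (adjusted p = 0.336). Among higher genes, Efcab1 was 5.89 and 12.8 CPM and then 4.51 and 11.5 CPM (adjusted p = 0.0391), and the noncoding Gm32828 was 7.07 and 16.8 CPM and then 7.89 and 14.6 CPM (adjusted p = 0.0132). Tmem181b-ps, a pseudogene whose reads may belong to near-identical copies, was 167 and 81.3 CPM and then 152 and 96.4 CPM (adjusted p = 6.18e-10). It was lower in INH-like nuclei by edgeR as well (log2 -0.81, adjusted p = 2.38e-05).

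Some edgeR calls in excitatory neurons rested on 1 pair. Lhfpl3, a marker of oligodendrocyte precursors, was 70.3 and 186 CPM in the control pair of CA1-like nuclei and 78.0 and 65.5 CPM in the stress pair, and it passed edgeR there (adjusted p = 0.000293) and in CA2/3-like nuclei (adjusted p = 6.42e-14). The summed markers of oligodendrocyte precursors, 5 genes in all, were 102 and 212 CPM in the control pair of DG-like nuclei and 105 and 98.3 CPM in the stress pair. The part of such RNA in the results of the control pair was not tested. Col11a1, a fibrillar collagen chain, was 226 and 522 CPM and then 465 and 654 CPM in CA2/3-like nuclei, past 1.5-fold in the control pair only (adjusted p = 1.5e-16). The size of these adjusted p does not show that the pairs agree. DESeq2 passed 0 genes in CA1-like and 0 in CA2/3-like nuclei.

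In INH-like nuclei 43 of 12302 genes (0.35%) passed edgeR, 27 higher and 16 lower, and 8 of them were called in the same direction. Il16, which encodes a cytokine with a neuronal form, was 13.5 and 22.9 CPM in the control pair and 6.89 and 14.4 CPM in the stress pair (adjusted p = 0.0438). Its level in DG-like nuclei was higher, at 70.5 to 98.6 CPM. The INH call of Il16 held in 4 of 8 alternatives, and without likely doublets its pairs had opposite signs. Gm42743 and Gm13849, both long noncoding RNAs, were higher in both pairs (ratios 1.72 and 1.53, and 2.25 and 2.02) and above all 6 others. Of all genes measured in this class, 1.93% lay above all 6. Among lower genes, Gtpbp6 was 13.5 and 7.004 CPM and then 12.8 and 4.42 CPM (adjusted p = 0.0235), and Rasgrp2, an exchange factor for Rap1, was 23.8 and 12.7 CPM and then 24.5 and 14.1 CPM (adjusted p = 0.0247). Sgms2, a sphingomyelin synthase, was 8.54 and 4.49 CPM and then 9.18 and 4.14 CPM and did not pass edgeR. Scarna2, a small Cajal body RNA, was 164 and 88.5 CPM and then 65.8 and 39.8 CPM. It was also called lower in oligodendrocyte precursor-like and microglia-like nuclei, but its level in other wild-type pools reached 376 CPM in INH-like nuclei, and its reads may be shared with other copies.

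The INH-like nuclei of Con-nIL-1R1-/- held more RNA of excitatory markers. The summed CA1 markers there were 919 CPM in Con-IL-1R1+/+ and 1263 in Con-nIL-1R1-/-, and the CA2/3 markers 649 and 912 CPM, while the INH markers were 13845 and 10806 CPM. In the stress pair the CA1 markers were 869 and 809 CPM and the INH markers 15349.8 and 15861 CPM. Fibcd1 and Fn1, markers of CA1 and of other excitatory neurons, were among the 14 genes called higher. Of these 14 genes 2 were at their highest in INH-like nuclei, and of the 16 called lower 4 were. The class by genotype term passed 34 of 13030 genes (0.261%), 8 higher and 26 lower in DG-like than in INH-like nuclei, and it is to be read beside these values, whose part was not tested.

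Gene lists of the stress and immune response were then described by their counts. In the 4 neuronal classes, 0 members of any of the 17 lists were called other than Il1r1 in DG-like nuclei. Between 97 and 110 list entries could be measured per class, with a gene counted in every list that holds it. With 0.129% to 0.24% of all genes called, these counts are near the background. Of 10 activity genes, 6 could be measured in DG-like nuclei and 5 of these were above 0 in both pairs, with medians of 0.53 and 0.33 against -0.02 and -0.01 over all genes. The share of all genes above 0 in both pairs is not given here, so the count of 5 has no background beside it. By edgeR 0 of the 6 passed after adjustment, and those given here were chosen after their values were seen. Homer1, a postsynaptic scaffold gene induced by activity, was 101 and 123 CPM in the control pair and 102 and 138 CPM in the stress pair. Npas4 was 1.74 and 4.69 CPM and then 2.24 and 4.49 CPM, and Bdnf, brain-derived neurotrophic factor, was 60.6 and 74.5 CPM and then 57.3 and 60.6 CPM. Fos had 1 and 13 UMIs in the control pair and 2 and 9 in the stress pair, 25 in all and below the limit for a call. In CA1-like nuclei the medians of 10 activity genes were 0.12 and -0.07, and in INH-like nuclei those of 9 were 0.62 and -0.30. Of 8 glucocorticoid genes 7 were measured in DG-like nuclei, with medians of -0.01 and -0.04. The 13 ionotropic glutamate receptor genes had medians of 0.11 and -0.05 there, 11 GABA-A receptor genes 0.02 and 0.00, and 12 neurotrophin and CREB genes -0.0042 and 0.0061.

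Glia and vessels, which by design keep the gene, were compared the same way. In oligodendrocyte-like nuclei 5 genes were higher (0.0941%) and 6 lower (0.113%) of 5316, 0.207% together, and 27 were opposite. edgeR passed 0 of 5989 genes, with 157 at an unadjusted p under 0.05, and DESeq2 also passed 0. Mob3b, a kinase adaptor of the MOB family, was 225 and 139 CPM in the control pair and 225 and 109 CPM in the stress pair. Cers2, which makes the very long-chain ceramides of myelin, was 43.2 and 74.6 CPM and then 28.2 and 64.0 CPM, from 16 to 34 UMIs per pool. Its call held in 1 of 8 alternatives, lost among others without each sublibrary in turn.

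In oligodendrocyte precursor-like nuclei 12 genes were higher (0.187%) and 13 lower (0.202%) of 6428, 0.389% together, and 53 were opposite. edgeR passed 5 of 6909 genes (0.0724%). Ndst4, a heparan sulfate sulfotransferase, was 60.8 and 117 CPM and then 49.7 and 219 CPM (adjusted p = 0.00826). Bfsp2 was 74.6 and 22.3 CPM and then 72.9 and 28.1 CPM (adjusted p = 0.0154), below all 6 others, as were 2.66% of all genes measured in this class. Of the 12 higher genes, 11 were at their highest in a neuronal class.

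Astrocyte-like nuclei had 17 genes higher (0.363%) and 23 lower (0.491%) of 4686, 0.854% together, and 25 opposite. edgeR passed 44 of 5003 (0.879%), of which 24 were called in the same direction. The calls were led by neuronal genes. Hs3st4 was 559 and 1705 CPM in the control pair and 171 and 546 CPM in the stress pair (adjusted p = 6.59e-15), and Adarb2, a marker of interneurons, was 1459 and 403 CPM and then 1362 and 408 CPM (adjusted p = 5.65e-19). Without sublibrary 4 the mean of both ratios of Adarb2 turned to 0.25. The summed INH markers in astrocyte-like nuclei were 3231 and 906 CPM and then 2622 and 1958 CPM, and 16 of the 17 higher genes were at their highest in a neuronal class. Mbp, a myelin protein, was 479 and 200 CPM and then 335 and 189 CPM. The summed astrocyte markers were 4197 and 5006 CPM and then 6672 and 6713 CPM. The part of neuronal RNA in these calls was not tested.

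In microglia-like nuclei 6 genes were higher (0.0721%) and 22 lower (0.264%) of 8324, 0.336% together, and 256 were opposite. The class was not alike between pools. Its median depth was 1744 UMIs in Con-IL-1R1+/+ and 7020 in Con-nIL-1R1-/-, and its summed microglial markers were 1728 and 592 CPM in the control pair but 1499 and 2173 CPM in the stress pair. edgeR passed 1 of 8769 genes (0.0114%), Nlrp1b, an inflammasome sensor, at 56.9 and 5.18 CPM and then 20.1 and 4.70 CPM, the last from 3 UMIs (adjusted p = 0.00287). Rarb, a retinoic acid receptor that is also a medium spiny marker, was 54.6 and 23.5 CPM and then 145 and 39.2 CPM. Neat1, a nuclear noncoding RNA, was 31.2 and 16.5 CPM and then 44.1 and 23.5 CPM. Its call held in 1 of 8 alternatives and was lost without each sublibrary in turn. Of the 16 genes of the microglial reactivity list 5 could be measured and 0 were called.

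Endothelial-like nuclei had the largest share of same-direction calls among the 9 classes, 79 higher (2.02%) and 45 lower (1.15%) of 3917, 3.17% together, with 55 opposite. edgeR passed 12 of 4969 (0.241%), 11 higher and 1 lower. Gm32647 was 33.7 and 175 CPM and then 57.2 and 259 CPM (adjusted p = 0.00295), and Ntng1, a netrin family axon guidance molecule, was 67.4 and 330 CPM and then 54.1 and 206 CPM (adjusted p = 0.00351). Of 12 ionotropic glutamate receptor genes measured 3 were called higher, and of 8 GABA-A receptor genes 1 was, with list medians of 1.48 and -0.023 and of 1.41 and 0.68. Grik2 had ratios of 1.55 and 0.77, Grin2a of 1.49 and 0.61 and Gabra2 of 1.93 and 0.92. The call of Grin2a held in 3 of 8 alternatives, and without sublibrary 1 the pairs of Grik2 and of Grin2a had opposite signs. Among lower genes, Ppard, a nuclear receptor for fatty acids, was 333 and 161 CPM and then 397 and 206 CPM, and Nr3c1, the glucocorticoid receptor, was 249 and 155 CPM and then 279.8 and 159 CPM. The summed endothelial markers were 9763 and 5133 CPM in the control pair and 11909 and 9781 CPM in the stress pair. Of the 79 higher genes 70 were at their highest in a neuronal class, and 43 of the 45 lower genes were at their highest in endothelial-like nuclei. There were 32 calls without sublibrary 1 and 79 without sublibrary 4, in place of 124. The part of neuronal RNA in these calls was not tested. Of 12 genes of the endothelial IL-1 response list 1 could be measured, and it was not called.

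Shares of classes were compared last. Among the 4 neuronal classes DG-like nuclei were 36.2% and 35.2% in the control pair and 35.5% and 36.0% in the stress pair, with overlapping intervals. INH-like nuclei were 16.6% (15.4 to 17.9) and 22.5% (21.2 to 23.8) in the control pair and 23.9% (22.3 to 25.5) and 25.2% (23.6 to 26.8) in the stress pair. CA1-like nuclei were 30.4% and 25.4% and then 22.1% and 24.3%, and CA2/3-like nuclei were 16.8% and 16.9% and then 18.5% and 14.6%. Of all nuclei, oligodendrocyte-like nuclei were 6.53% and 2.35% in the control pair and 5.70% and 3.87% in the stress pair. The smaller CA1 cluster was 0.357% and 2.32% and then 1.49% and 3.41%, and unnamed nuclei were 16.6% and 25.9% and then 30.4% and 35.6%. In these 3 classes both pairs went the same way with separate intervals, though the smaller CA1 cluster was not found with 15 principal components (0 nuclei). The same held for the nuclei with Slc17a6 markers, which were kept out of the classes compared. They were 20.96% and 0.323% of all nuclei in the control pair and 1.246% and 0.496% in the stress pair. These intervals are exact Clopper-Pearson intervals for counting error in 1 pool and do not cover differences between mice or dissections.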

How the data were processed

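Nuclei of pooled hippocampi were barcoded by split-pool ligation, and the authors deposited whole-number UMI counts per gene and nucleus, made with the Parse pipeline on mm39, and per the labels Seurat 4.1.1 was used. The GEO samples are 4 sublibraries that each hold all 8 pools, and a nucleus was assigned to its pool by the name the protocol gives each condition. Members, gene lists and markers were chosen with earlier results of these data known. Nuclei were clustered with scanpy 1.11.5, and the rule that names a cluster was settled after its tables were seen but before any gene comparison. No doublets were removed in the analysis as reported, and leaving out the top-scoring nuclei was an alternative. By the threshold of Scrublet, which scores likely doublets, 22.9% of Con-nIL-1R1-/- nuclei and 12.2% of Stress-nIL-1R1-/- nuclei were marked. It marked 0 nuclei in either IL-1R1+/+ pool. The alternative left out the same share, 6%, of every pool, so it could not even out this difference by genotype. The part of this difference in the calls was not tested.

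Counts were summed per class and pool. Ratio intervals were exact conditional binomial intervals (scipy 1.17.1). Genotype was tested with edgeR 4.0.16 quasi-likelihood fits in R 4.3.3 (TMM, filterByExpr, Benjamini-Hochberg threshold 0.05), on classes with at least 20 nuclei in every pool, and DESeq2 1.42.0 was an alternative. Named genes were, per class, Il1r1, both transporters, the 5 leading same-direction calls each way, the 5 leading edgeR calls, genes called in 3 classes or more, neuronal and other, called neighbours of either locus and called list members. Galnt10 outside its calls, Il1rap, the activity genes and other uncalled list members were chosen after their values were seen. Scripts were tested on simulated data. Counting intervals cover counting error only. Sublibraries were treated as technical portions of a pool, never as replicates of a genotype. Some genes that the naming rule selects are not reported here.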

Additional observations from a re-analysis of the deposited data

Results flagged for a closer look

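The genotype effect differed between DG-like and INH-like nuclei for 9 of the named genes, by the class by genotype term of the edgeR fit. Over all genes the term passed 34 of 13030 (0.261%). Most named genes were chosen by their calls in these same pools, so the 9 follow in part from that choice. The term was lower in DG-like nuclei for Il1r1 (-1.47), Slc24a4 (-0.77), Ndst4 (-0.67), Il16 (-0.95), Hs3st4 (-0.55), Slc17a7 (-0.80) and Olfml2b (-0.96). It was higher for Zfhx3 (1.20) and Pcsk1 (1.37). Zfhx3 is a marker of the Slc17a6 class, which was found almost only in Con-IL-1R1+/+. In INH-like nuclei Zfhx3 was 73.2 and 21.9 CPM in the control pair and 19.4 and 25.7 CPM in the stress pair. In DG-like nuclei it was 33.6 and 36.3 CPM and then 26.2 and 32.2 CPM. The part of RNA of that class in the Zfhx3 term was not tested. INH-like nuclei of Con-nIL-1R1-/- also held more RNA of CA1 markers (919 and 1263 CPM in the control pair), and the part of this in the 9 differences was not tested. Without sublibrary 1 the term called 0 genes (681 had an unadjusted p under 0.05) and without sublibrary 4 it called 3, by edgeR in both. The INH-like pairs had opposite signs for Zfhx3 (-1.74 and 0.41) and Hs3st4 (0.91 and -0.17).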

How the results depend on the processing

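Il1r1 in DG-like nuclei kept its direction and its call under every alternative run for its ratio. The thinned ratio of the stress pair, -1.85, came from 1 random draw, and in another draw 7 and 5 nuclei had a UMI, so the thinned call of that pair rests on the draw. In Prox1+ nuclei its control ratio was -2.08. With nuclei thinned to 500 UMIs, other ratios rest on so few UMIs that their sign cannot be read, with intervals that all hold 0. They were 1.89 in CA2/3-like nuclei of the stress pair, 0.94 and 0.87 in the control and stress pairs of INH-like nuclei, and -1.53 in endothelial-like nuclei of the stress pair. Leaving out each sublibrary in turn, the endothelial-like ratio ran from -2.58 to -0.72 in the control pair and from -1.35 to 0.74 in the stress pair.

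The counts of same-direction calls moved by over 1.5 times in 44 of 100 recomputed counts and those of edgeR calls in 75 of 97. In the order DG, CA1, CA2/3, INH, oligodendrocyte, oligodendrocyte precursor, astrocyte, microglia and endothelial, they were 3, 4, 1, 3, 2, 8, 0, 0 and 1 after thinning, 10, 4, 14, 15, 3, 12, 26, 16 and 67 with at least 200 UMIs, and 4, 4, 6, 6, 5, 6, 11, 10 and 43 at 2-fold. With 15 principal components they were 19 in INH, 15 in oligodendrocyte precursor, 109 in astrocyte and 44 in microglia. With likely doublets left out they were 17 in INH, 6 in oligodendrocyte, 41 in oligodendrocyte precursor, 26 in astrocyte and 50 in endothelial. Without a sublibrary they ran from 14 to 19 in CA2/3, 7 to 13 in oligodendrocyte, 13 to 32 in oligodendrocyte precursor and 32 to 179 in endothelial. Joining both CA1 clusters, an alternative chosen after seeing the data, gave 89 calls in CA1. After thinning 1 of the 18 DG calls was kept and 0 of those in CA1, CA2/3, INH and oligodendrocyte precursor. Without likely doublets 5 of the 30 INH calls were kept, and without sublibrary 4, 6 of the 40 astrocyte calls. Among named genes, the calls of Pcsk1 in DG-like, Grip2 in CA1-like and Scarna2 in oligodendrocyte precursor-like nuclei held in 3, 3 and 2 of 8 alternatives.

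Calls by edgeR were fewer under most alternatives. DESeq2 called 1 in DG, 3 in astrocyte and 0 in CA1, CA2/3, INH, oligodendrocyte precursor, microglia and endothelial. With all 8 pools in the fit there was 1 in DG, 2 in astrocyte and 0 in CA1, CA2/3, INH and oligodendrocyte precursor, while microglia and endothelial were not run, with under 20 nuclei in a pool. Without the stress term there was 1 each in DG, CA1 and CA2/3 and 0 in INH, oligodendrocyte precursor, astrocyte, microglia and endothelial. After thinning there were 4 in DG, 1 in CA2/3 and 0 in CA1, INH, oligodendrocyte precursor, astrocyte, microglia and endothelial. Without the filter there were 13 in DG, 27 in INH, 7 in oligodendrocyte, 2 in microglia and 3 in endothelial. With 15 principal components there were 1 in DG, 11 in CA2/3, 15 in INH, 2 in oligodendrocyte precursor, 4 in microglia and 0 in endothelial. Without likely doublets there were 16 in INH, 3 in oligodendrocyte, 2 in oligodendrocyte precursor, 1 in astrocyte and 0 in microglia and endothelial. Without a sublibrary the counts ran from 1 to 12 in DG, 0 to 8 in CA1, 9 to 21 in CA2/3, 0 to 43 in INH, 0 to 5 in oligodendrocyte, 0 to 0 in oligodendrocyte precursor, 0 to 40 in astrocyte, 0 to 3 in microglia and 0 to 1 in endothelial, and from 0 to 48 for the class by genotype term.

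Named genes whose mean of both ratios turned sign after thinning were Tagln3 (-0.065) and Pcsk1 (-1.40) in DG, Gm44742 (0.31) in CA1, Cpne4 (-0.10) and Schip1 (-0.33) in astrocyte, Plxnc1 (-0.26) in microglia, and Tmem108 (-0.33), Grin2a (-0.56), Grik4 (-0.71) and Ntrk3 (-0.25) in endothelial. Cemip turned to -0.016 in oligodendrocyte precursor without likely doublets. With 15 principal components Col25a1 (0.0045) and Tshz2 (0.30) turned in astrocyte. Without a sublibrary the mean ran from -2.13 to 0.25 for Adarb2 and from -3.68 to 0.19 for Dlx6os1 in astrocyte, mean of the pairs (both turned without sublibrary 4), and from -0.12 to 1.62 for Grik4 in endothelial (turned without sublibrary 1). The cause was not tested for any of these.

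Shares of all nuclei moved from 16.8% to 17.998% (Con-IL-1R1+/+) and from 21.7% to 23.1% (Con-nIL-1R1-/-) in DG without likely doublets. In Con-nIL-1R1-/- CA2/3 moved from 10.4% to 11.7% with 15 principal components and 11.6% without likely doublets. There INH moved from 13.9% to 11.7% and 11.8%. In Con-IL-1R1+/+ INH moved from 7.73% to 7.10% with 15 principal components. Replicate numbers mark sublibraries that each hold every pool and pair no animals, so no block on them was fitted. Pools were matched by stress state, which is the stress term of the fit. With 1 pool of 3 mice per group, differences between animals, dissections and pools cannot be told apart from genotype, and low counts in glia and vessels limit what could be seen there.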
